A study of Mus musculus with 6 samples.

Results

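The family of miR-130 and miR-301 was followed across the aortas of 6 Apoe-/- mice, 3 EC-Dicerflox and 3 EC-DicerWT. Its 4 members are mmu-miR-130a, mmu-miR-130b, mmu-miR-301a and mmu-miR-301b, found by exact assay name, without the names that carry an asterisk, among the 596 mouse miRNA assays of the array. Levels of miR-301a and miR-301b were lower in EC-Dicerflox aortas, at 61.9% and 63.1% of the EC-DicerWT level, with no overlap between the groups. The groups overlapped for miR-130a and miR-130b. Of all 439 tested assays, 7.06% were lower without overlap, and no assay had an adjusted limma P under 0.05. The family was chosen on the contrast of the genotypes, because miR-301b was among the miRNAs the study followed up for its lower level in these arrays. The differences between the genotypes are therefore given as a description without a test. The 2 members that moved alike come from different chromosomes, whereas miR-130b and miR-301b lie side by side in the genome. Whether miR-130b and miR-301b moved apart was not resolved. Their Ct gap overlapped between the genotypes, and its difference of -0.54 cycles became -0.22 without EC-DicerWT replicate 3. Whether the assay of miR-301a also detects miR-301b, or the reverse, was not tested.

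Dicer cuts mature miRNAs out of their hairpin precursors. EC-Dicerflox mice were VE-Cadherin-CreERT2 Dicer1flox/flox Apoe-/- and EC-DicerWT littermates were VE-Cadherin-CreERT2 Dicer1WT/WT Apoe-/-, so both groups carried the tamoxifen-inducible Cre, which is driven by an endothelial promoter, and both lacked Apoe. All mice were females of 6 to 8 weeks at the start of the diet, had received tamoxifen on 5 days (2 mg per 20 g body weight), and were then fed a high-fat diet (HFD, 21% crude fat, 0.15% cholesterol, 19.5% casein) for 12 weeks. RNA came from the whole aorta, which also holds smooth muscle and other cells, and fewer cells of a type cannot be told apart from less RNA per cell.

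A miRNA recognises its target mRNAs mainly through its seed, bases 2 to 8 from the 5′ end, so miRNAs with the same seed form a family with largely shared predicted targets. The family of miR-130 and miR-301 is known from blood vessels, where miR-130a has been linked to the angiogenic behaviour of endothelial cells and the family as a whole to proliferation and stiffening of the vessel wall, in part through repression of Pparg, the gene of a lipid-sensing nuclear receptor. RefSeq (GRCm38.p6) gave mature sequences for 3 of the 4 members, and miR-301b was not matched. They are shown with bases 2 to 8 in capitals, together with miR-721, the other assayed miRNA with this seed, because the shared seed defines the family and the 3′ part tells its members apart.
mmu-miR-130a-3p: cAGUGCAAuguuaaaagggcau
mmu-miR-130b-3p: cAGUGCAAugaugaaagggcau
mmu-miR-301a-3p: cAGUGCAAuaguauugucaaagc
mmu-miR-721: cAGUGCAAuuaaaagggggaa
Read position by position from the 5′ end, miR-130a-3p and miR-130b-3p were identical at 20 of 22 bases. MiR-301a-3p matched miR-130a-3p at 12 of 22 bases and miR-130b-3p at 11 of 22, and 9 of these matches were the first 9 bases. The table held 1679 mature mouse miRNAs, of which 7 (0.417%) carried this seed.

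The hairpins of all 4 members are shown with the seed letters in capitals, because they hold the part that separates miR-130a and miR-130b from miR-301a and miR-301b.
Mir130a: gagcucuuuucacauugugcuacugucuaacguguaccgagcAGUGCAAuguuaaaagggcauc
Mir130b: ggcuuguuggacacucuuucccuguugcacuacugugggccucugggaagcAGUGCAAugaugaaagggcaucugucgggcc
Mir301: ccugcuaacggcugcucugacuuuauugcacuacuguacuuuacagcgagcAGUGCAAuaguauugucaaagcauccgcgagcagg
Mir301b: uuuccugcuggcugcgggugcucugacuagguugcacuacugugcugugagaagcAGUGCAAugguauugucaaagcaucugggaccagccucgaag
Over the 22 letters that start with the seed, the Mir301 hairpin, which gives miR-301a, and the Mir301b hairpin differed at 1 position, and the Mir130a and Mir130b hairpins at 2. Every pairing of Mir130a or Mir130b with Mir301 or Mir301b differed at 9 to 11 of these positions. Whether the assay of one member also detects another was not tested.

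The hairpins lie at 3 places in GRCm38.p6. Mir130a is at chr2:84741115-84741178 on the minus strand, in no annotated gene, with Ypel4 and Gm19426 as neighbours. Mir301 is at chr11:87113004-87113089 on the plus strand, inside the bounds of Ska2, a gene of the chromosome segregation machinery. Mir130b at chr16:17124061-17124142 and Mir301b at chr16:17124400-17124496 are both on the minus strand inside the bounds of 2610318N02Rik, with 257 bases between them. Exons and introns of the host genes were not used here.

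All 4 members were detected in all 6 samples, as were 394 of the 596 assays. The cycle threshold (Ct) is the PCR cycle at which an assay crosses its signal level, so a higher Ct means less RNA, and Ct 40 stands for not detected. In EC-Dicerflox replicates 1, 2 and 3 the Ct of miR-130a was 20.99, 21.40 and 21.59, and in the EC-DicerWT replicates it was 20.86, 20.89 and 21.84. The Ct of miR-301b was 22.07, 22.60 and 22.76 in EC-Dicerflox and 21.35, 21.62 and 21.98 in EC-DicerWT aortas. These 2 miRNAs come from different places in the genome, and in every sample miR-130a had the lower Ct.
The Ct of miR-301a was 22.20, 22.83 and 22.98 in EC-Dicerflox and 21.60, 21.89 and 21.94 in EC-DicerWT aortas. For miR-130b it was 24.76, 25.29 and 25.81 in EC-Dicerflox and 24.80, 24.23 and 25.97 in EC-DicerWT aortas, the highest Ct of the family in every sample. Among the 394 assays detected in all samples, ordered from the lowest mean Ct, miR-130a stood at rank 69, miR-301b at rank 85, miR-301a at rank 90 and miR-130b at rank 149.

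The order of the members was tested on the Ct gap within a sample, which needs no reference RNA and does not use the genotype, with an exact two-sided sign-flip test over the 6 samples for the 6 pairs. The smallest P this test can give is 0.031, and P values were adjusted over the 6 pairs by the Benjamini-Hochberg method. The Ct of miR-301b exceeded that of miR-130a by 0.80 ± 0.43 cycles (SD, n = 6; higher in 6 of 6 samples, exact P = 0.031, adjusted 0.038). This gap pools both genotypes, with means of 1.15 cycles in EC-Dicerflox and 0.46 in EC-DicerWT aortas. Its SD therefore contains the difference between the genotypes, as does the SD of each other pair. That difference, EC-Dicerflox minus EC-DicerWT, was 0.72 cycles for miR-301a and miR-130a and 0.16 for miR-130b and miR-130a. For miR-130b it was -0.56 with miR-301a and -0.54 with miR-301b, and for miR-301a and miR-301b it was 0.03. The Ct of miR-130b exceeded that of miR-301a by 2.90 ± 0.63 cycles (SD, n = 6; 6 of 6 samples, exact P = 0.031, adjusted 0.038). Between these steps miR-301a and miR-301b were not resolved, with a gap of 0.18 ± 0.12 cycles (SD, n = 6; miR-301a higher in 5 of 6 samples, exact P = 0.063, adjusted 0.063). The 3 remaining pairs, which span more than 1 step of the order, also had the same sign in 6 of 6 samples (exact P = 0.031, adjusted 0.038 for each), with gaps of 0.98 ± 0.50 cycles for miR-301a and miR-130a, 3.08 ± 0.54 cycles for miR-130b and miR-301b, and 3.88 ± 0.31 cycles for miR-130b and miR-130a (SD, n = 6). The gaps of these 3 pairs are sums of the steps, so they add no separate support, and the adjustment covers pairs that are not independent. The efficiency of each assay is not known, so a gap in Ct is not a ratio of copies. With a sample left out the test can no longer reach the threshold.

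**Figure D1:**
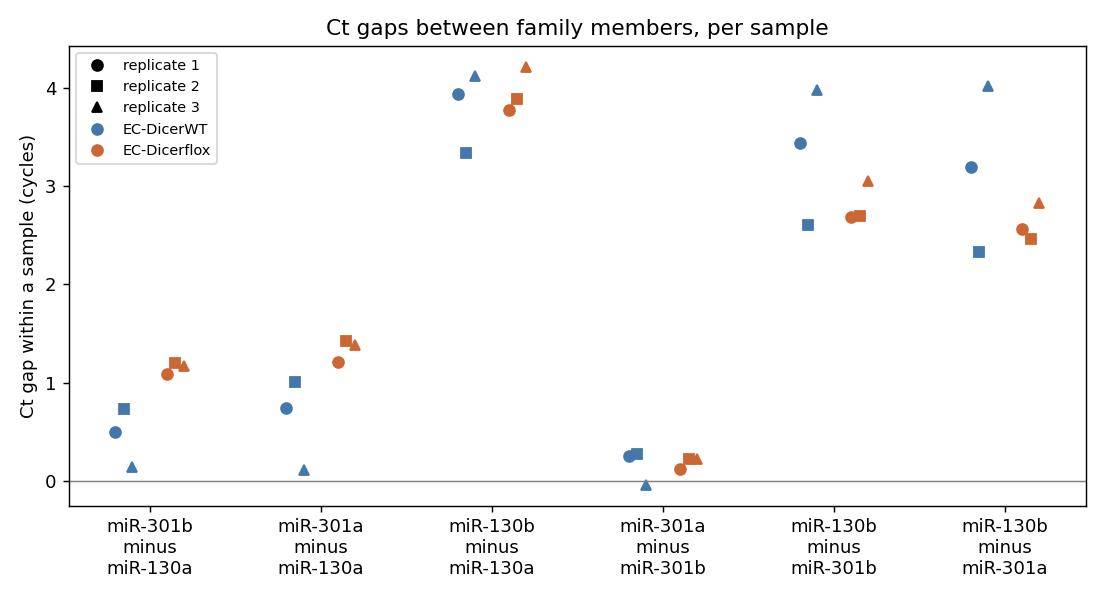
Ct gap between each pair of members within a sample, in cycles, with colours for the genotype and symbols for the replicate number. The gap of miR-301a and miR-301b stayed between -0.04 and 0.28 in all 6 samples, while that of the neighbouring miR-130b and miR-301b ran from 2.61 to 3.98.

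For the comparison of the genotypes, a level was computed as the mean Ct of 5 control small RNAs minus the Ct of the miRNA, on the log2 scale, so a higher level means more RNA. The level of miR-301b was -2.63, -2.73 and -2.40 in the EC-Dicerflox and -1.78, -2.17 and -1.81 in the EC-DicerWT replicates. Each EC-Dicerflox aorta lay below each EC-DicerWT aorta, and 0.23 log2 units separated the nearest values of the groups. The change of miR-301b was -0.67 ± 0.23 (SE, n = 3 per group), from -1.92 ± 0.22 (SD, n = 3) in EC-DicerWT to -2.59 ± 0.17 (SD, n = 3) in EC-Dicerflox aortas.

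The level of miR-301a was -2.76, -2.95 and -2.62 in EC-Dicerflox and -2.03, -2.45 and -1.77 in EC-DicerWT aortas. Here too all 3 EC-Dicerflox values lay below the EC-DicerWT values, with 0.17 log2 units between the nearest. Its change was -0.69 ± 0.26 (SE, n = 3 per group), beside -0.67 for miR-301b. Both were measured in the same aortas, so these errors do not measure the error of their difference, which was not tested.

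Neither miR-130a nor miR-130b separated the groups. The level of miR-130a was -1.55, -1.53 and -1.23 in EC-Dicerflox and -1.29, -1.44 and -1.67 in EC-DicerWT aortas, and both the highest level and the second lowest belonged to EC-Dicerflox replicates. Its change was 0.03 ± 0.22 (SE, n = 3 per group), and it turned to -0.07 when the third replicate of either group was left out. The level of miR-130b was -5.32, -5.42 and -5.45 in EC-Dicerflox and -5.23, -4.78 and -5.80 in EC-DicerWT aortas, so the EC-Dicerflox values lay inside the EC-DicerWT range. Its change was -0.13 ± 0.32 (SE, n = 3 per group), and it became 0.11 without EC-DicerWT replicate 2 and -0.39 without EC-DicerWT replicate 3, when the groups no longer overlapped.

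**Figure D2:**
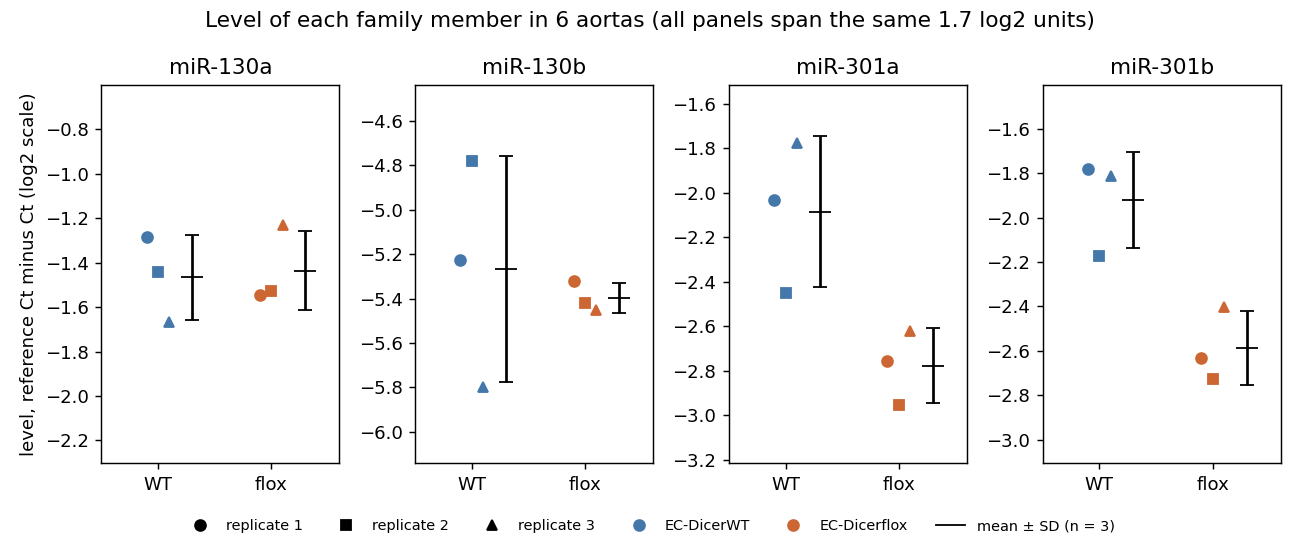
Level of each member (reference Ct minus Ct, log2 scale) in the 3 EC-DicerWT and 3 EC-Dicerflox aortas, with symbols for the replicate number and bars for the mean ± SD (n = 3). All panels span the same range: the groups are apart for miR-301a and miR-301b, and for miR-130b the EC-DicerWT values spread over an SD of 0.51 against 0.07 in EC-Dicerflox.

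Over the whole array, 439 assays had a Ct under 40 in 3 or more of the samples and entered the test. The EC-Dicerflox values lay below the EC-DicerWT values without overlap in 2 of the 4 members, beside 7.06% of all tested assays, and since the members were chosen on this contrast nothing is read from that share. By limma with Benjamini-Hochberg adjustment, no assay of the array had an adjusted P under 0.05 (0% of 439), and 21 (4.78%) had an unadjusted P under 0.05. The median change of all tested assays was -0.10 and that of the 4 members -0.40. MiR-301a had rank 57 and miR-301b rank 59 of 439 from the most negative change, and miR-130b stood at rank 207 and miR-130a at rank 287.

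**Figure D3:**
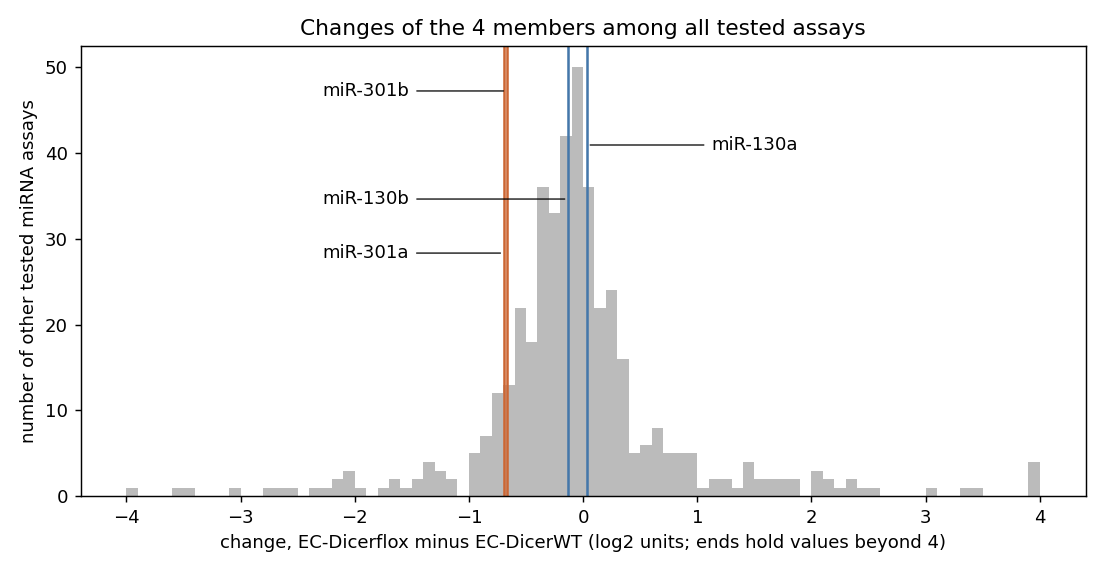
Changes (EC-Dicerflox minus EC-DicerWT, log2 units) of the other tested assays as a histogram, with values beyond 4 in the outer bars, and the 4 members as lines. The lines of miR-301a (-0.69) and miR-301b (-0.67) nearly coincide to the left of the bulk, and those of miR-130a (0.03) and miR-130b (-0.13) fall in its centre.

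Another reference RNA moves all 4 members by the same amount, so the gaps between members do not depend on it. Relative to U6 alone the changes were -1.07 for miR-301a, -1.04 for miR-301b, -0.51 for miR-130b and -0.35 for miR-130a, while the median of all tested assays moved to -0.48. Relative to the median of all tested assays the changes were -0.59, -0.56, -0.03 and 0.13 with the control RNAs and with U6 alone. In the 7 fits with samples left out, miR-301a and miR-301b had lower estimates than miR-130a and miR-130b. Only the order against miR-130b could change in these fits, because the Ct gaps to miR-130a did not overlap between the genotypes. These gaps contain the contrast on which the family was chosen, so their lack of overlap is no further support. The Ct of miR-301b minus that of miR-130a was 1.09, 1.20 and 1.17 in the EC-Dicerflox replicates and 0.49, 0.73 and 0.145 in the EC-DicerWT replicates, without overlap. For miR-301a minus miR-130a the mean gap of the EC-Dicerflox aortas was 1.34 ± 0.12 cycles (SD, n = 3) and that of the EC-DicerWT aortas 0.62 ± 0.46 (SD, n = 3), again without overlap, a difference of 0.72 cycles that became 0.47 without EC-DicerWT replicate 3.

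The neighbours miR-130b and miR-301b were compared in the same way. The Ct of miR-130b exceeded that of miR-301b by 2.69, 2.69 and 3.05 cycles in EC-Dicerflox and by 3.45, 2.61 and 3.98 cycles in EC-DicerWT aortas. The groups overlapped through EC-DicerWT replicate 2, the aorta with the smallest gap of all. The EC-Dicerflox aortas had a mean gap of 2.81 ± 0.21 cycles (SD, n = 3) against 3.35 ± 0.69 (SD, n = 3) for EC-DicerWT, and their difference of -0.54 ranged from -0.90 without EC-DicerWT replicate 2 to -0.22 without EC-DicerWT replicate 3. In contrast, the gap of the unlinked miR-301a and miR-301b averaged 0.19 ± 0.06 cycles (SD, n = 3) for EC-Dicerflox against 0.16 ± 0.18 (SD, n = 3) for EC-DicerWT, a difference of 0.03.

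How closely 2 miRNAs tracked each other was described by the SD of their Ct difference over the 6 samples, where a smaller SD means a steadier difference. All assays of a sample share its RNA, so these SDs are given without a test. The RNA was reverse-transcribed and pre-amplified first, and whether the 2 array cards shared these steps is not given in the sources used here. For miR-301b the most alike of the other 393 assays detected in all samples were miR-409-3p (SD 0.10 cycles), miR-301a (0.12) and miR-103 (0.12). For miR-301a they were miR-409-3p (0.09), miR-301b (0.12) and miR-511 (0.14). Thus miR-301a and miR-301b were each the other's second nearest assay, against a median SD of 0.59 cycles over all assays for miR-301a and 0.55 cycles for miR-301b. These SDs contain the difference between the genotypes on which the family was chosen, and the assays named beside the members changed by similar amounts (miR-409-3p by -0.62, miR-103 by -0.70 and miR-511 by -0.57 log2 units). Over the deviations from the genotype means, a measure added after the values were seen, the SD of miR-301a and miR-301b was 0.13 cycles. There miR-301b stood at rank 13 for miR-301a and miR-301a at rank 18 for miR-301b, and the median SDs were 0.52 and 0.49. The hairpins of miR-301a and miR-301b differed at 1 of the 22 letters that start with the seed. Whether the assay of one also detects the other was not tested, so the 2 may not be separate measurements.

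MiR-130a tracked miR-101b (SD 0.09 cycles), miR-331-3p (0.10) and miR-700 (0.12) most closely. MiR-130b tracked miR-34c* (0.20), miR-18a* (0.22) and miR-30d (0.22). From miR-130b, miR-130a was at rank 21 (SD 0.31 cycles), its genomic neighbour miR-301b at rank 167 (0.54) and miR-301a at rank 219 (0.63). From miR-130a, miR-130b stood at rank 102, miR-301b at rank 172 and miR-301a at rank 204. The spacing of miR-130a and miR-130b from the others rested on EC-DicerWT replicate 3. Without it the SD of miR-130b was 0.32 with miR-130a, 0.35 with miR-301b and 0.34 with miR-301a, and miR-130a was nearer to miR-301a (0.28) and miR-301b (0.31) than to miR-130b (0.32). Over the deviations from the genotype means, miR-130a was nearest to miR-301b (0.21), and miR-130b remained nearest to miR-130a (0.33, against 0.51 for miR-301b).

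**Figure D4:**
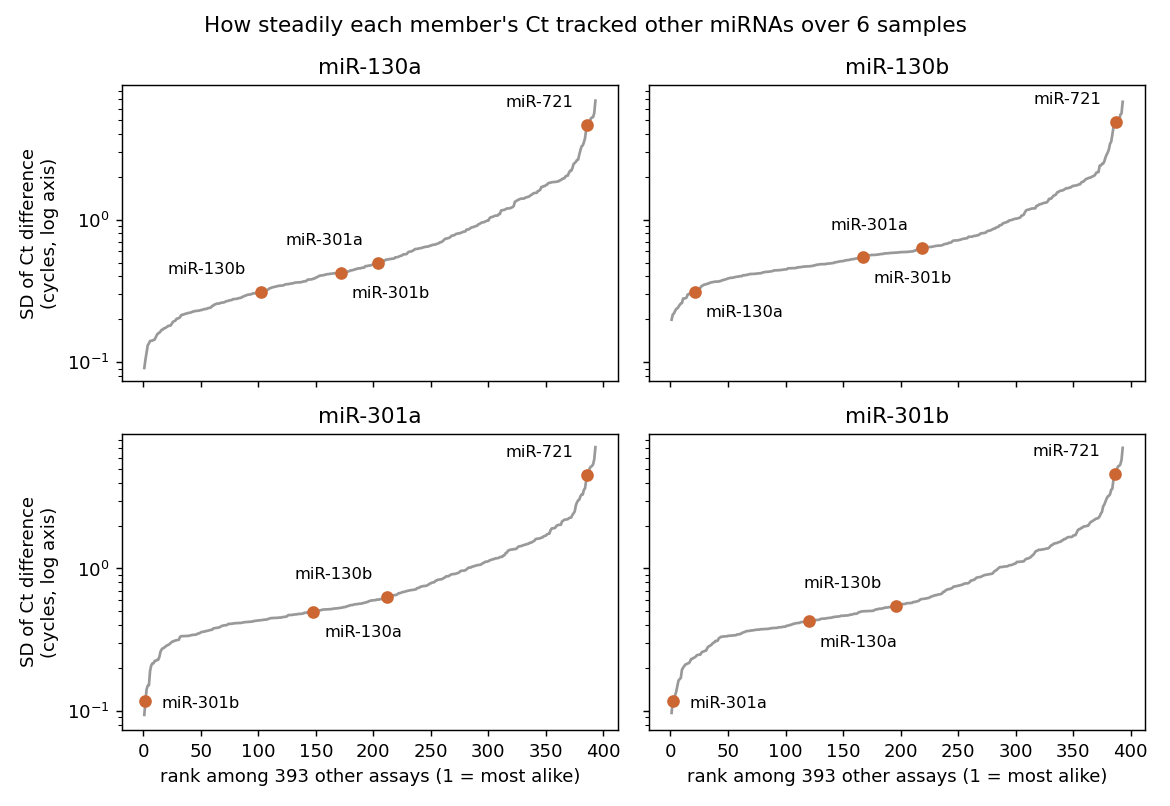
For each member, the SD over 6 samples of its Ct difference from each other assay detected in all samples (cycles, log axis), ordered from the most to the least alike, with the other members and miR-721 as points. MiR-301a and miR-301b are at rank 2 for each other, miR-130a and miR-130b lie at ranks 21 and 102 for each other over all 6 samples, and miR-721 is at rank 386 or 387 for all 4.

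The third replicates of both groups stood apart in some assays, and their processing order or batch is not given in the labels. In 13 of the 394 assays detected in all samples the third replicate differed by more than 3 cycles from the mean of replicates 1 and 2 in the same direction in both groups, and none of the 4 members was among these. In replicates 1 and 2 alone the difference of EC-Dicerflox and EC-DicerWT levels was -0.70 for miR-301b and -0.61 for miR-301a, and in the third replicates, with 1 sample per group, it was -0.59 and -0.85. For miR-130a these values were -0.17 and 0.44, and for miR-130b they were -0.37 and 0.35, so the sign for miR-130a and miR-130b differed between these subsets. MiR-301a and miR-301b were lower in both. That sign was fixed by the lack of overlap between their groups, so it is no further support.

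MiR-721, with the same seed, was among the 13 assays. Its Ct was 25.01, 25.16 and 17.64 in EC-Dicerflox and 26.88, 26.53 and 17.83 in EC-DicerWT aortas. Its level in the third replicate exceeded the mean of the other replicates by 8.14 log2 units in EC-Dicerflox and by 9.54 log2 units in EC-DicerWT aortas, and its change between the genotypes was 1.31 ± 3.65 (SE, n = 3 per group; adjusted limma P of 0.99). MiR-130b*, the other strand of the miR-130b hairpin, had Ct values of 29.65, 28.93 and 29.59 in EC-Dicerflox and 29.05, 26.91 and 30.04 in EC-DicerWT aortas. In both strands of this hairpin EC-DicerWT replicate 2 had the lowest Ct and EC-DicerWT replicate 3 the highest. The change of miR-130b* was -0.56 ± 0.74 (SE, n = 3 per group; adjusted limma P of 0.99).

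Beyond the family, 5 assayed miRNAs hold 6 of the 7 seed letters near their 5′ end. These letters are in capitals in the RefSeq mature sequences, shown because such miRNAs can share part of the targets.
mmu-miR-19a-3p: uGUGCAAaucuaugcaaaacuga
mmu-miR-19b-3p: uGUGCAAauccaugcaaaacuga
mmu-miR-148a-3p: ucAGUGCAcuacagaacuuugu
mmu-miR-148b-3p: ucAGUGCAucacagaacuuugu
mmu-miR-152-3p: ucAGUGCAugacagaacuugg
None of them passed the test (adjusted limma P of 0.99 for each). The changes were -0.48 ± 0.25 for miR-148b, -0.31 ± 0.28 for miR-19a, -0.23 ± 0.25 for miR-152, -0.14 ± 0.24 for miR-19b and -0.13 ± 0.28 for miR-148a (SE, n = 3 per group). Only miR-148b of these 5 had EC-Dicerflox values that lay below all EC-DicerWT values, beside 7.06% of all tested assays. It was at rank 12 of the assays most like miR-301b and at rank 15 for miR-301a. These ranks contain the difference between the genotypes, so they are not separate from the lack of overlap.

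MiRNAs enriched in the cell types of the aorta were examined beside the members. The endothelial miR-126-3p and miR-126-5p changed in opposite directions, by -0.13 and 0.25, with a median of 0.06. Their summed level (log2 scale) ranged from 1.98 to 2.76 in EC-Dicerflox and from 2.14 to 2.82 in EC-DicerWT aortas. The smooth muscle miRNAs miR-143 and miR-145 also differed in sign, with changes of -0.10 and 0.21 and a median of 0.06. Their summed levels were 5.34 to 6.06 and 5.28 to 5.79, the highest of the 5 lists in every aorta. The medians were -0.19 for the 4 leukocyte miRNAs, 0.03 for the 2 measured of 3 erythrocyte miRNAs and -0.04 for the 4 tested of 5 striated muscle miRNAs, and the summed levels overlapped between the groups in all 5 lists. None of the 14 tested markers had an adjusted limma P under 0.05, and 1, the striated muscle miR-208 with a change of -1.65, had an unadjusted P under 0.05. MiR-144 was not measured, and miR-499 was detected in 1 sample and not tested. Dicer1 mRNA is not measured by a miRNA array, so the deletion itself was not checked here.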

How the data were processed

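Total RNA from 6 aortas was reverse-transcribed, pre-amplified and measured on TaqMan miRNA array cards, and each aorta was assigned to its group by its label. The deposited values are the authors' raw Ct, a cycle number with no reference subtracted and no read depth, so the number of mice limits the precision. Baseline and threshold settings are not given in the sources used here. The table held 596 mouse miRNA assays, of which 335 were on card A, with all 4 members, and 261 on card B. The card was inferred from the number of digits in the assay number.

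Levels were computed as the mean Ct of 5 control RNAs (U6, U87, Y1, snoRNA135 and snoRNA202), averaged over the cards, minus the Ct of the miRNA, which assumes that product doubles in each cycle. Assays with a Ct under 40 in at least 3 samples were fitted with limma 3.58.1 in R 4.3.3 (lmFit and eBayes, two-sided), with genotype as the only term and Benjamini-Hochberg adjustment over all 439. The fit was tested on simulated data. Ct gaps were tested by enumerating all 64 sign assignments in Python 3.11.15. The named miRNAs are the 4 members, other assays with the same or an overlapping seed, the asterisk strand, and the 3 assays most like each member. Members, lists and tests were chosen with earlier results of these data known. Sequences and positions are from RefSeq (GRCm38.p6), whose mature sequences matched 3 of the 4 members and whose hairpins matched all 4. Alternatives covered the reference, the filters, the variance model, the third replicates, a replicate block and each replicate left out.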

Additional observations from a re-analysis of the deposited data

Results flagged for a closer look

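The assay of the plant miRNA ath-miR159a, a negative control that no comparison uses, gave a Ct of 39.776 on one card of EC-Dicerflox replicate 1 and stayed at 40 in the EC-DicerWT aortas, a signal at the end of the run and far above the Ct of every member.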

How the results depend on the processing

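MiR-301a and miR-301b were lower in EC-Dicerflox aortas under all 15 alternatives tried for each, between -1.07 and -0.54 for miR-301a and between -1.04 and -0.59 for miR-301b. Their groups did not overlap, so leaving out samples could not change this sign. The replicate block, the batch term for the third replicates and undetected wells set as missing left both estimates unchanged. The count of alternatives is therefore no further support. Relative to U6 alone the changes moved to -1.07, -1.04, -0.51 for miR-130b and -0.35 for miR-130a, because another reference shifts all 4 members alike. In replicates 1 and 2 only, miR-130a was at -0.17. The change of miR-130a was negative in 5 of 15 alternatives and that of miR-130b in 14 of 15. No pairing by replicate number was assumed in the main fit. The correlation of deviations between samples of the same number was 0.15, -0.06 and 0.31 for numbers 1 to 3, the highest for the third replicates. Samples of unlike number were not compared in this way. With a replicate block the change of miR-301b was -0.67, as without it. The replicate numbers are balanced over the genotypes, so neither the block nor the batch term could change an estimate. The number of assays with an unadjusted limma P under 0.05, 21 with 17 lower, was 11 with 11 lower for U6 alone. There were 11 lower assays for snoRNA135 alone and 9 in replicates 1 and 2. Leaving out 1 replicate gave 8 (without EC-Dicerflox replicate 2) to 22 assays, 6 to 13 of them lower. At an adjusted limma P under 0.05, 1 assay passed when a batch term stood for the third replicates and 1 in replicates 1 and 2, in both cases miR-1906, which is no member and is named after its values were seen. The Ct gap of miR-301b and miR-130a was 0.72 to 0.94 cycles and that of miR-130b and miR-301a 2.68 to 3.02 cycles with 1 replicate left out, and 0.88 and 2.64 in replicates 1 and 2. Samples of 5 or 4 cannot reach the threshold of the exact sign-flip test, so these gaps were not past it. As alternatives chosen after seeing the data, the SD of the Ct difference of miR-301a and miR-301b was 0.06 to 0.13 cycles with 1 replicate left out and 0.13 within genotypes. The cause of the other shifts was not tested.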
